A study of Mus musculus with 14 samples.

Results

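Lrmda and 6 further genes, AA465934, Eno1b, Eif5al3-ps, Gm6969, Gm26510 and Gm26637, were described across mouse haematopoietic progenitor lines that carried or lacked Cdk6. The 7 were taken by name from the 50686 genes listed, and they had been chosen by their counts. These lay apart between KO and WT libraries with and without a transforming kinase, except for Eno1b in 1 KO library with the kinase. Their differences between the genotypes are therefore given as a description with no test. Each of the 7 passed the filter on low counts, as did 14512 genes in all, but 5 of them could pass through the KO libraries alone and 2 through the WT libraries alone, so their passing says nothing more. RNA was sequenced from 14 libraries of HPC-LSK lines, which are cultured cells that resemble the stem and progenitor fraction of bone marrow named after its lineage-negative, Sca-1-positive and Kit-positive surface.

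Cdk6 is a cyclin-dependent kinase of the cell cycle, and BCR-ABL p210 is the fusion kinase of chronic myeloid leukaemia. The groups were Cdk6 KO untransformed (3 libraries), Cdk6 WT untransformed (4), Cdk6 KO with BCR-ABL p210 (4) and Cdk6 WT with BCR-ABL p210 (3). The labels give C57BL/6N as the strain background of every line, and do not say how Cdk6 was removed or whether WT and KO lines came from littermates. The medium of untransformed lines held IL-6 (12.5 ng/ml) and SCF (2%), whereas p210 lines grew free of cytokines by the growth protocol, so kinase and medium cannot be told apart. The descriptions of p210 samples nevertheless carry the tag SCF, and what it means was not settled. The sample descriptions give each line a number code, of which there are 2 (called first and second here), and a letter A or B. A p210 line carries the code and letter of an untransformed line of the same genotype, except KO p210 replicate 3, whose untransformed line is not analysed here. Each line is thus its own derivation, and a difference between genotypes cannot be told apart from a difference between the lines that happen to stand for them. Nothing in the labels says that libraries of a group came from separate animals, and p-values therefore cover the spread among these libraries alone, which may be technical.

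Total counts per library ranged from 20270348 to 50303271. Cdk6 itself, given as CPM, its counts scaled to TMM-adjusted library size, stood at 271, 258 and 236 CPM in KO untransformed replicates 1 to 3, against 970, 999, 1213 and 1305 CPM in WT untransformed lines. In p210 lines it stood at 326, 578, 245 and 163 CPM in KO replicates 1 to 4, against 576, 606 and 597 CPM in WT. The library labelled KO p210 replicate 2 thus lay inside the WT p210 range for Cdk6, unlike the other KO libraries. Cdk6 RNA was counted in every KO library. For each of the 7 genes, which were chosen for parting the genotypes, replicate 2 lay outside the WT p210 range, on the KO side. Whether its label is right was not tested. With edgeR's quasi-likelihood test and Benjamini-Hochberg adjustment over the 14512 genes, Cdk6 fell in KO untransformed lines (log2 fold change -2.14 ± 0.34 SE, adjusted p = 0.00573). In p210 lines its log2 fold change was -0.86 ± 0.31 (adjusted p = 0.147), and -1.28 without replicate 2 (adjusted p = 0.0143). Progenitor markers were present, Cd34 at 368 to 1367 CPM and Ptprc at 259 to 646 CPM over the 14 libraries, while Ly6a, which encodes Sca-1, reached as little as 0.553 CPM. The mast cell and basophil list (6 genes) summed to 2557 to 2846 CPM in KO untransformed and 1213 to 5940 CPM in WT untransformed lines, and to 6906 to 10145 CPM in KO p210 and 3913 to 13118 CPM in WT p210 lines. The neutrophil and monocyte list (5 genes), led by Mpo, summed to 12235 to 15756 CPM in KO untransformed lines against 62.6 to 6046 CPM in WT untransformed lines, and to 299 to 2057 CPM in KO p210 lines against 152 to 704 CPM in WT p210 lines. In bulk RNA, fewer cells of a type and less RNA per cell cannot be told apart. What part cell make-up has in the values of the 7 genes was not tested. The T cell list (4 genes) summed to at most 1.08 CPM in a library, mostly Cd4, with Cd3e and Cd8a at 0 in all, and the B cell list (3 genes) to at most 0.116 CPM, with Ms4a1 at 0. The melanocyte list (5 genes) summed to 1.52 to 3.59 CPM, nearly all of it Pmel, with Tyr and Tyrp1 at 0.

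Lrmda stands for leucine-rich melanocyte differentiation associated. Its human counterpart is mutated in a form of oculocutaneous albinism, and the human protein is reported to bind the small GTPases RAB32 and RAB38, which direct cargo to pigment granules and other lysosome-related organelles. Of the other genes, Eno1b, Eif5al3-ps and Gm6969 are near copies of genes that every cell uses. A processed pseudogene arises when a spliced messenger RNA is copied back into the genome, so it has no introns and can stay almost letter for letter like its source. A short read from such a pair may match both places, and is then left uncounted, or may be given to one of them by a single base. The remaining 3 are transcripts with no known protein. AA465934 (annotated as a processed transcript) contains the small nucleolar RNA gene Snord7, and Gm26510 and Gm26637 are annotated as long intergenic non-coding RNAs.

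Positions are those of the count files on GRCm38. Lrmda lies at chr14:22019712-23056085 on the plus strand and spans over a megabase. AA465934 lies at chr11:83291699-83294632 (plus), Eif5al3-ps at chr5:90132229-90132675 (plus) and Gm6969 at chr12:24638669-24639010 (minus). Gm26510 at chr17:70874349-70924996 (minus) and Gm26637 at chr17:78882042-78892500 (plus) are the only pair of the 7 on one chromosome, with starts 8.01 Mb apart. Cdk6 and Eif5al3-ps share chromosome 5, at a distance of 86.8 Mb.

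Gm6969 is a near copy of the spliced messenger of Cox7a2l (chr17:83501919-83514333, minus), whose protein helps respiratory chain complexes to assemble into supercomplexes. Over 336 aligned bases the 2 transcripts differed at 2 positions, T220A and C309T, which is 99.4% identity, and Gm6969 held 6 bases more. Positions are counted from 1 at the 5′ end of the copy's transcript, with the Cox7a2l base first. The stretch that sets them apart is shown for both, 5′ to 3′ in the direction of transcription, with capitals on the letters that differ. That of Gm6969 is chr12:24638762-24638827 and that of Cox7a2l is joined from 2 exons within chr17:83502696-83504117.
Gm6969: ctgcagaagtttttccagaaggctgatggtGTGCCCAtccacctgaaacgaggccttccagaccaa
Cox7a2l: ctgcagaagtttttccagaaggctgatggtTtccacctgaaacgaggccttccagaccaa
Of the 293 windows of 50 bases in Gm6969, the length of a read here, 203 were letter for letter in Cox7a2l, 41 differed at 1 position and 49 at 2 or more. Inbred mouse strains are known to carry one of 2 versions of Cox7a2l that differ in a short in-frame stretch, and the C57BL/6 reference carries the shorter. Which bases the reads counted on either gene held is not in count files and was not tested.

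Eif5al3-ps is a processed pseudogene of Eif5a (chr11:69916714-69921958, minus), which encodes a translation factor known for its hypusine residue. Over 434 aligned bases they differed at 12 positions (97.2% identity), and of 385 windows of 50 bases 94 were identical, 141 differed at 1 position and 150 at 2 or more. Of the 12 differences, 8 fall in the 100 bases shown, at chr5:90132446-90132545 in the copy and within chr11:69917682-69917969, over 2 exons, in Eif5a. Capitals mark the differing letters.
Eif5al3-ps: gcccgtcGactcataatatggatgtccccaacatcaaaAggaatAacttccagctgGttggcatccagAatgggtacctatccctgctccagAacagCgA
Eif5a: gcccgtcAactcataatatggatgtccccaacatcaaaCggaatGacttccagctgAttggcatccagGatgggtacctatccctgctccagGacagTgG
Eno1b is a near copy of Eno1 (chr4:150236721-150248879, plus), the enolase of glycolysis in most tissues. Over 1652 aligned bases they differed at 9 positions (99.5% identity), and 1311 of 1603 windows were identical. Another copy of Eno1, the processed pseudogene Gm5855 (chr3:130929366-130930670, minus), differed from Eno1 at 47 of 1305 bases, and 5 of the 9 bases that set Eno1b apart from Eno1 are the same in Gm5855. The 100 bases shown, at chr3:130929855-130929954 in Gm5855 and chr4:150246619-150246718 in Eno1, hold 2 of those 5, which are in capitals, while other differences are in lower case.
Gm5855: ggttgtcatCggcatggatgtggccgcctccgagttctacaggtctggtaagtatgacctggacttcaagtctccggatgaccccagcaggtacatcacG
Eno1: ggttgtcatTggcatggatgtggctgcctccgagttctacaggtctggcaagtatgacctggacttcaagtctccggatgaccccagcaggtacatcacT
In Lrmda, AA465934 and Gm26637 no window of 50 bases matched another annotated transcript, and in Gm26510 6 of 1795 did (0.334%).

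Lrmda was measured at 23.6, 25.6 and 22.7 CPM in the KO untransformed libraries, against 1.53, 1.08, 1.18 and 1.41 CPM in WT untransformed libraries. In p210 lines it stood at 22.4, 15.1, 15.5 and 15.9 CPM in KO, against 1.54, 1.34 and 1.93 CPM in WT. The lowest KO library lay far above the highest WT library in both states. The means were 24.0 ± 1.47 CPM in KO untransformed (SD, n = 3) and 1.30 ± 0.206 CPM in WT untransformed lines (n = 4), a log2 fold change of 4.21 ± 0.19 SE. They were 17.2 ± 3.47 CPM in KO p210 (n = 4) and 1.60 ± 0.298 CPM in WT p210 lines (n = 3), a log2 fold change of 3.43 ± 0.21. WT libraries were not empty, with 34 to 57 counts each, so Lrmda was low but detected in the Cdk6 WT lines.

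**Figure D1:**
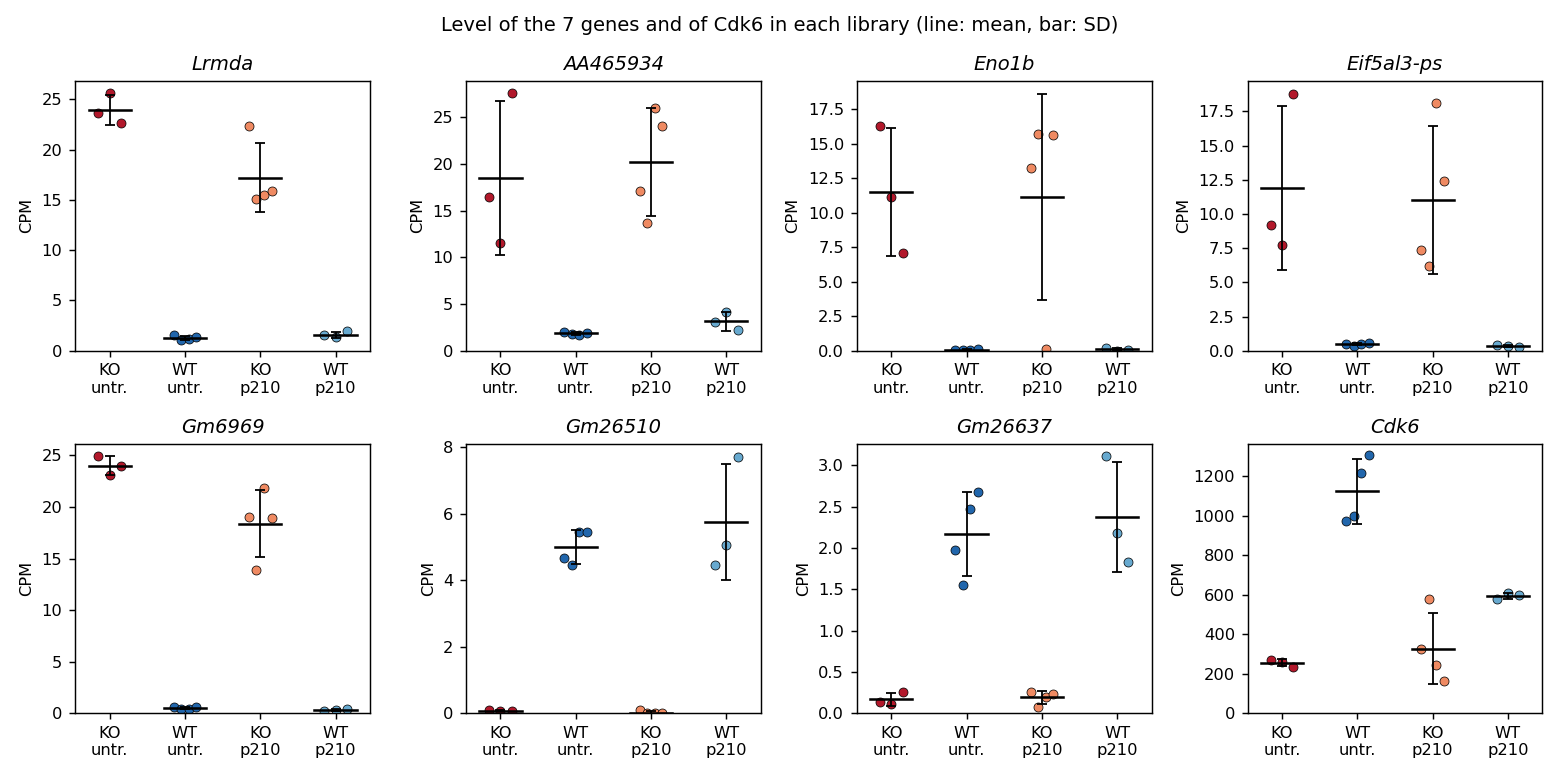
Level in CPM of each of the 7 genes and of Cdk6 (y axes, linear, each from 0) in the 14 libraries, in KO and WT lines, untransformed (untr.) and with p210. Points are libraries, lines are means and bars are SD. For 5 genes the KO points stand high and the WT points near 0, except for 1 KO p210 point of Eno1b at 0.116 CPM, and for Gm26510 and Gm26637 the order is turned round.

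Gm6969 had 24.9, 23.1 and 24.0 CPM in KO untransformed libraries, against 0.629, 0.434, 0.439 and 0.577 CPM in WT untransformed libraries. Its values were 19.0, 13.9, 21.8 and 18.9 CPM in KO p210 and 0.188, 0.336 and 0.406 CPM in WT p210 libraries. No KO library came near the WT range in either state, with log2 fold changes of 5.53 ± 0.24 in untransformed and 5.91 ± 0.28 in p210 lines. The copy's source stood far above it throughout. Cox7a2l averaged 90.5 ± 3.83 CPM in KO untransformed (n = 3) and 105 ± 9.85 CPM in WT untransformed lines (n = 4), and 79.7 ± 7.03 CPM in KO p210 (n = 4) and 83.6 ± 3.68 CPM in WT p210 lines (n = 3). By edgeR, Cox7a2l did not pass the threshold between genotypes (log2 fold change -0.21 ± 0.09, adjusted p = 0.111 in untransformed lines, and -0.07 ± 0.09, adjusted p = 0.715 in p210 lines). Without WT untransformed replicate 3, its lowest WT library, the untransformed value was -0.31 (adjusted p = 0.036).

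Added together, counts on Gm6969 and Cox7a2l came to 111 to 117 CPM in KO untransformed and 90.9 to 112 CPM in WT untransformed libraries, so the ranges of the sum overlapped. In p210 lines the sum ran over 83.7 to 105 CPM in KO and 79.8 to 86.2 CPM in WT libraries. Of these joint counts, Gm6969 took 19.9 to 22.5% in KO untransformed and 0.386 to 0.574% in WT untransformed libraries, and 18.7 ± 1.71% in KO p210 (n = 4) and 0.373 ± 0.146% in WT p210 lines (n = 3). In single KO libraries the share lay between 16.7% (95% Wilson interval 15.1 to 18.3%) and 22.5% (20.9 to 24.2%), where intervals cover counting error only. How far reads of Cox7a2l were placed on Gm6969 was not tested.

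Eif5al3-ps had 9.18, 7.76 and 18.8 CPM in KO untransformed libraries, against 0.494, 0.378, 0.467 and 0.552 CPM in WT untransformed libraries. With p210 it had 7.37, 6.22, 18.1 and 12.4 CPM in KO, against 0.439, 0.370 and 0.254 CPM in WT. Groups were apart in both states (log2 fold changes 4.65 ± 0.43 and 4.92 ± 0.49), but the KO libraries varied among themselves more than those of Gm6969. Eif5a was the most abundant of these genes, at 982 ± 111 CPM in KO untransformed and 1091 ± 73.5 CPM in WT untransformed lines, and 949 ± 91.5 CPM in KO p210 and 902 ± 121 CPM in WT p210 lines. Its own difference did not pass (adjusted p = 0.381 and 0.78 by edgeR in untransformed and p210 lines). Eif5al3-ps took 1.17 ± 0.449% of their joint counts in KO untransformed and 0.0433 ± 0.00635% in WT untransformed lines, and 1.16 ± 0.561% in KO p210 and 0.0388 ± 0.00539% in WT p210 lines. The paralogue Eif5a2 was lower in KO untransformed lines, at 18.7 ± 4.06 CPM against 31.4 ± 6.05 CPM in WT lines. This was -0.74 ± 0.22 on the log2 scale (adjusted p = 0.0405 by edgeR), a call lost without any 1 of KO replicates 1 and 2 and WT replicates 2, 3 and 4 (adjusted p = 0.113, 0.168, 0.0551, 0.0873 and 0.0879 in that order).

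Eno1b lies at chr18:48045335-48048378 (plus strand) and is annotated as protein-coding. It had 16.3, 11.1 and 7.11 CPM in KO untransformed libraries, against 0.0449, 0.0189, 0.0824 and 0.125 CPM in WT untransformed libraries, which held 1 to 5 counts each. In p210 lines it had 13.2, 15.7, 0.116 and 15.6 CPM in KO, against 0.220, 0 and 0.0508 CPM in WT. KO p210 replicate 3, with 4 counts, thus lay inside the WT range, and the groups overlapped there. The log2 fold changes were 7.33 ± 1.31 in untransformed and 6.81 ± 1.44 in p210 lines, where the value was 8.80 without WT p210 replicate 1, which held 7 of the 8 WT p210 counts, and 5.74 by limma-voom. KO p210 replicate 3 is the only KO library of the second code with letter A, a line that has no untransformed library here. Its values of the other 6 genes lay with the remaining KO p210 libraries or, for AA465934, Eif5al3-ps and Gm6969, above them.

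Gm5855, which was not among the 7, was singled out after its values were seen and is described with no test. It averaged 4.02 ± 2.04 CPM in KO untransformed and 0.182 ± 0.0324 CPM in WT untransformed lines. In p210 lines it averaged 3.24 ± 2.14 CPM in KO and 0.192 ± 0.0416 CPM in WT. KO p210 replicate 3, at 0.146 CPM, lay below the WT p210 libraries, at 0.152 to 0.235 CPM, and the other KO p210 libraries lay at 3.45 to 4.83 CPM. By edgeR, Eno1 did not pass between genotypes. It stood at 195 ± 24.7 CPM in KO untransformed and 205 ± 57.6 CPM in WT untransformed lines (adjusted p = 0.867), and at 234 ± 41.5 CPM in KO p210 and 259 ± 61.3 CPM in WT p210 lines (adjusted p = 0.776). Of the joint counts of Eno1b and Eno1, Eno1b took 3.53 to 6.88% in KO untransformed and 0.00790 to 0.0660% in WT untransformed libraries. In KO p210 libraries the share was 0.0400% in replicate 3 and up to 6.88% in the others, against 0 to 0.0690% in WT p210 libraries. A closer copy of Eno1, Gm4735, which differs from it at 5 of 1302 bases, stayed between 0 and 0.102 CPM in all libraries. Those 5 bases are all among the 9 that set Eno1b apart from Eno1, so sharing such bases with Eno1b is not particular to Gm5855. The muscle enolase Eno3 averaged 6.78 ± 0.531 CPM in KO untransformed and 9.38 ± 1.93 CPM in WT untransformed lines, the neuronal Eno2 0.917 ± 0.531 and 0.511 ± 0.316 CPM, and Eno4 had 2 counts over all libraries.

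**Figure D2:**
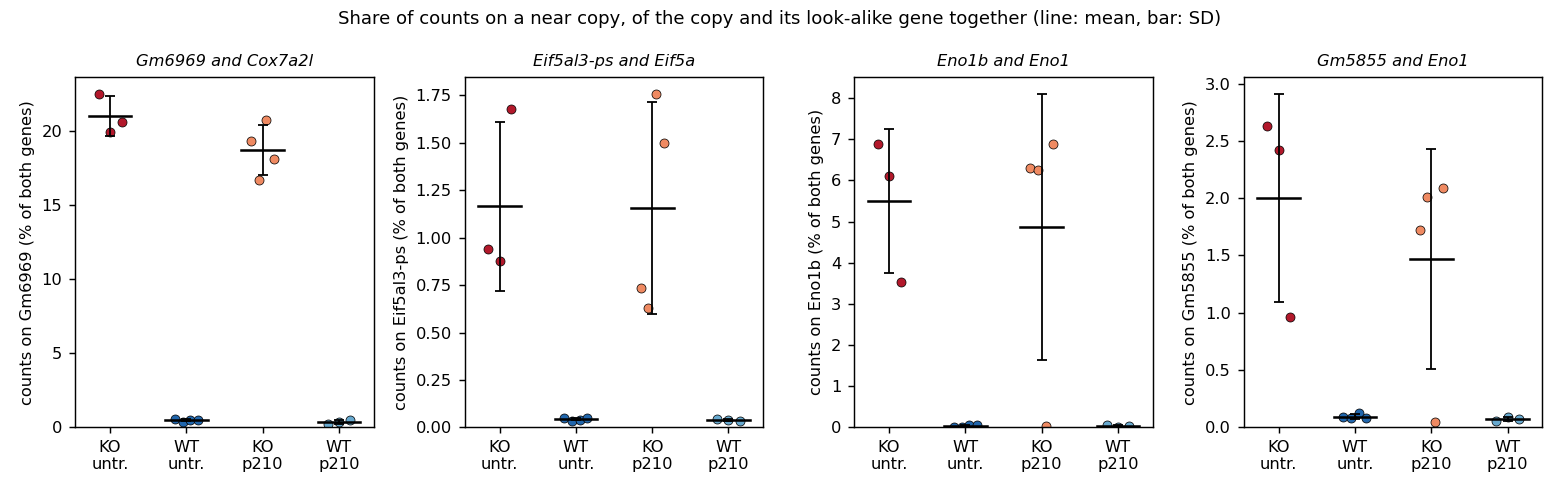
Counts on a near copy as a percentage of the counts on the copy and its look-alike gene together (y axes, linear, each from 0), by library, in KO and WT lines of both states. Points are libraries, lines are means and bars are SD. Gm6969 took 16.7 to 22.5% in the KO libraries and at most 0.574% in WT libraries. KO p210 replicate 3 lies at 0.0400% for Eno1b and 0.0499% for Gm5855, far below the other KO p210 libraries.

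AA465934 had 16.5, 11.5 and 27.6 CPM in KO untransformed libraries, against 2.02, 1.83, 1.70 and 1.86 CPM in WT untransformed libraries. In p210 lines it had 17.1, 13.7, 26.0 and 24.1 CPM in KO, against 3.11, 4.13 and 2.18 CPM in WT. The groups did not overlap in either state, and the log2 fold changes were 3.32 ± 0.32 and 2.68 ± 0.34. Snord7, which lies within AA465934, held 61 counts over all libraries and was not tested.

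The 2 non-coding RNAs of chromosome 17 stood the other way round. Gm26510 had 0.0909, 0.0784 and 0.0590 CPM in KO untransformed libraries, which is 2 or 3 counts each, against 4.67, 4.46, 5.44 and 5.44 CPM in WT untransformed libraries. In KO p210 lines it had 2 counts in replicate 1 and none in replicates 2 to 4, against 4.46, 5.07 and 7.72 CPM in WT p210 libraries. Its log2 fold change was -6.02 ± 0.68 in untransformed lines. In p210 lines the pooled level in KO was 0.00348 of that in WT (95% exact interval 0.000420 to 0.0126), from 2 against 445 counts. That interval covers counting error only, not the spread between libraries, and is no test of the difference.

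Gm26637 had 0.136, 0.118 and 0.255 CPM in KO untransformed libraries, against 1.98, 1.55, 2.47 and 2.68 CPM in WT untransformed libraries. With p210 it had 0.261, 0.0772, 0.204 and 0.234 CPM in KO, against 3.11, 2.18 and 1.83 CPM in WT. The groups did not overlap in either state (log2 fold changes -3.58 ± 0.43 and -3.60 ± 0.40). Gm26637 overlaps the start of Eif2ak2, the interferon-induced kinase PKR, which runs on the opposite strand. Counting used strand, and Eif2ak2 was at 40.4 ± 1.73 CPM in KO untransformed and 47.6 ± 1.29 CPM in WT untransformed lines (adjusted p = 0.221), and at 51.5 ± 9.98 CPM in KO p210 and 61.9 ± 8.09 CPM in WT p210 lines (adjusted p = 0.271, and 0.03 without KO p210 replicate 1).

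All 7 genes lay apart between KO and WT in untransformed lines and 6 of them in p210 lines. Of all genes tested, 39.7% lay apart in untransformed and 13.3% in p210 lines, and 7.01% (1017 genes) lay apart in the same direction in both. Since the genes were named for this pattern, nothing is read from the counts. By adjusted p as well as no overlap in both states, 212 genes (1.46%) were apart, 68 higher (0.469%) and 144 lower (0.992%) in KO. Ordered by the smaller of their 2 absolute log2 fold changes, Gm26510 came 1st of the 1017, Gm6969 2nd, Eif5al3-ps 4th, Gm26637 10th, Lrmda 16th and AA465934 42nd. Eno1b had no rank because of KO p210 replicate 3.

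**Figure D3:**
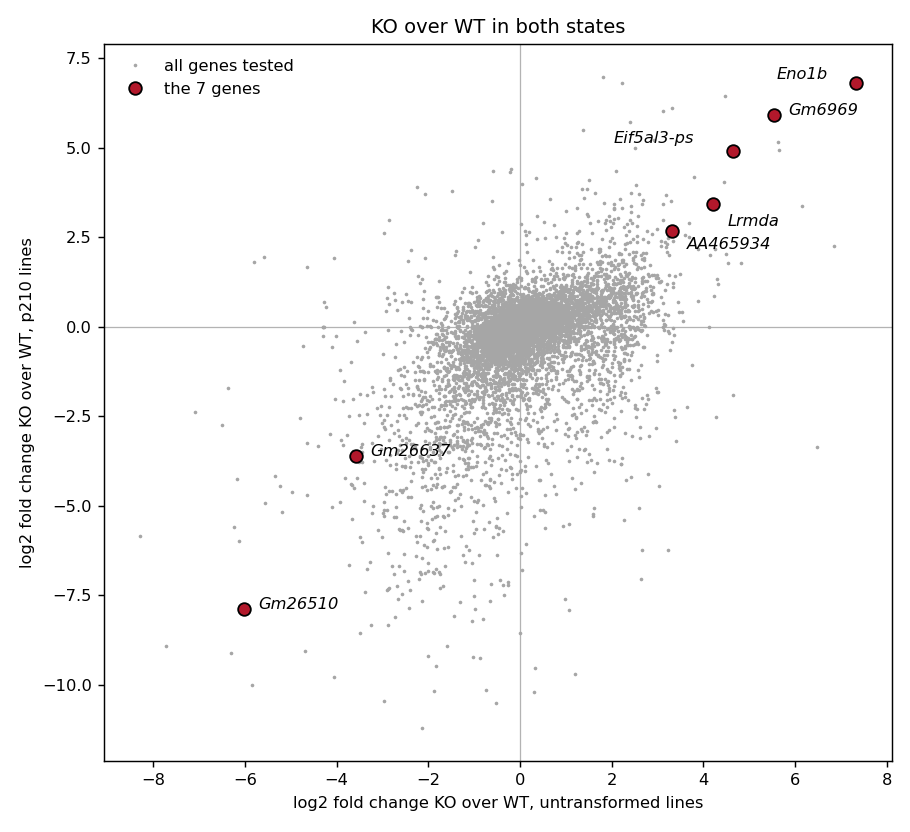
Log2 fold change of KO over WT in untransformed lines (x axis) and in p210 lines (y axis) for the 14512 genes tested, with the 7 genes in red. Lrmda, AA465934, Eno1b, Eif5al3-ps and Gm6969 lie at the upper right and Gm26510 and Gm26637 at the lower left. The differences were used to choose the genes.

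Most genes ranked among them were lower in KO. Slco2b1, an organic anion transporter, was 3rd, with a mean of 0.0131 CPM in KO untransformed and 1.08 CPM in WT untransformed lines. Ank3, an ankyrin that anchors membrane proteins, was at 6.67 CPM in KO untransformed against 101 CPM in WT untransformed lines, and at 0.463 CPM in KO p210 against 14.1 CPM in WT p210 lines. The imprinted gene Dlk1 was at 0.634 CPM in KO untransformed and 25.4 CPM in WT untransformed lines, but at only 0.0812 CPM in WT p210 lines. Other genes near the top outside the 7 were Gm6685, Fmn2, Tln2, Sema3a, P3h2 and Slc7a4. Of the genes named here from that order, Gm6685 was the only one outside the 7 higher in KO, at 0.239 CPM in KO untransformed and 0.00686 CPM in WT untransformed lines. The 212 genes apart by both criteria came from every autosome and the X chromosome, from 0.573% of tested genes on chromosome 18 to 2.90% on X, with 2.08% (15 of 722) on chromosome 17.

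Per length of transcript, in the authors' TPM (a share of transcripts corrected for their length), Gm6969 was the most abundant of the 7 in KO untransformed lines, at 230 ± 12.3 TPM. Eif5al3-ps (88.0 ± 46.3 TPM) and AA465934 (86.0 ± 40.1 TPM) followed and did not differ beyond their spread. Lrmda (28.9 ± 1.16 TPM) and Eno1b (21.4 ± 8.45 TPM) came next, with Eno1b reaching 30.3 TPM in 1 library, the same as the highest Lrmda library. In WT untransformed lines the order was another one. Gm26510 (10.3 ± 1.08 TPM) and AA465934 (9.66 ± 0.612 TPM) were highest and within their spread of each other, and Gm26637 was at 3.52 ± 0.827 TPM.

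The comparison of p210 with untransformed lines was not used to choose the 7 genes and could be tested. In KO lines, Lrmda averaged 17.2 ± 3.47 CPM with p210 and 24.0 ± 1.47 CPM without, and the p210 libraries (15.1 to 22.4 CPM) all lay under the untransformed ones (22.7 to 25.6 CPM), where 46.1% of all genes were apart. The log2 fold change of -0.48 ± 0.18 stood at the threshold (adjusted p = 0.0501 by edgeR). It was -0.63 without KO p210 replicate 1 (adjusted p = 0.0123), and it also passed without WT p210 replicate 2 or 3 or WT untransformed replicate 2 (0.0467, 0.0378 and 0.0498). It did not pass without any 1 of KO p210 replicates 2 to 4 and KO untransformed replicates 1 to 3 (adjusted p = 0.0909 or more by edgeR). By other tools adjusted p was 0.016 (DESeq2) and 0.00553 (limma-voom). With a term for each cell line, for code and letter or for sequencing runs, and with the first code alone, it did not pass. Of the 26 alternatives tried, 11 called it. In WT lines Lrmda averaged 1.60 ± 0.298 CPM with p210 and 1.30 ± 0.206 CPM without, with overlap (0.31 ± 0.19, adjusted p = 0.213). Whether the kinase's difference is unlike between genotypes was not tested for any of the 7, because that contrast equals the difference between the 2 contrasts that named them.

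Gm6969 was the one gene of the 7 to pass. In WT lines it fell to 0.310 ± 0.111 CPM with p210, against 0.520 ± 0.0982 CPM without, with no overlap (as for 45.0% of all genes; log2 fold change -0.76 ± 0.26, adjusted p = 0.0469). These are 6 to 10 and 14 to 23 counts per library. The call was lost without WT p210 replicate 1 or 2 (adjusted p = 0.296 and 0.0658), WT untransformed replicate 1 or 4 (0.0745 and 0.0994), with a term for each cell line (0.346), and by DESeq2 (0.0779) and limma-voom (0.237). In KO lines its levels were 18.4 ± 3.27 CPM with p210 and 24.0 ± 0.949 CPM without, also with no overlap (-0.38 ± 0.21, adjusted p = 0.164). Cox7a2l fell in WT lines as well, to 83.6 ± 3.68 CPM with p210 against 105 ± 9.85 CPM without (-0.33 ± 0.09, adjusted p = 0.0109, and 0.0771 with a term for each cell line).

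In KO lines, then, 0 of the 7 passed by edgeR, of 37.2% of all genes tested, with 1 at an unadjusted p under 0.05 (Lrmda), 1 called by DESeq2 and 2 by limma-voom. In WT lines 1 of 7 passed, of 39.5% of all genes, and none by DESeq2 or limma-voom. AA465934 was higher in each of the WT p210 libraries than in each WT untransformed one, at 3.14 ± 0.975 CPM against 1.85 ± 0.131 CPM (0.77 ± 0.31, adjusted p = 0.0695). Without WT p210 replicate 3 or KO untransformed replicate 3 it passed (adjusted p = 0.0469 and 0.044). Gm26510 in KO lines held 2 counts over the p210 and 7 over the untransformed libraries (adjusted p = 0.148, and 0.0141 without KO p210 replicate 1, the only p210 library with a count). Eif5al3-ps, Eno1b and Gm26637 overlapped in both genotypes, with log2 fold changes of -0.11, -0.04 and 0.11 in KO lines (adjusted p = 0.841, 0.978 and 0.978 by edgeR) and -0.39, 0.47 and 0.13 in WT lines (0.516, 0.825 and 0.793).

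**Figure D4:**
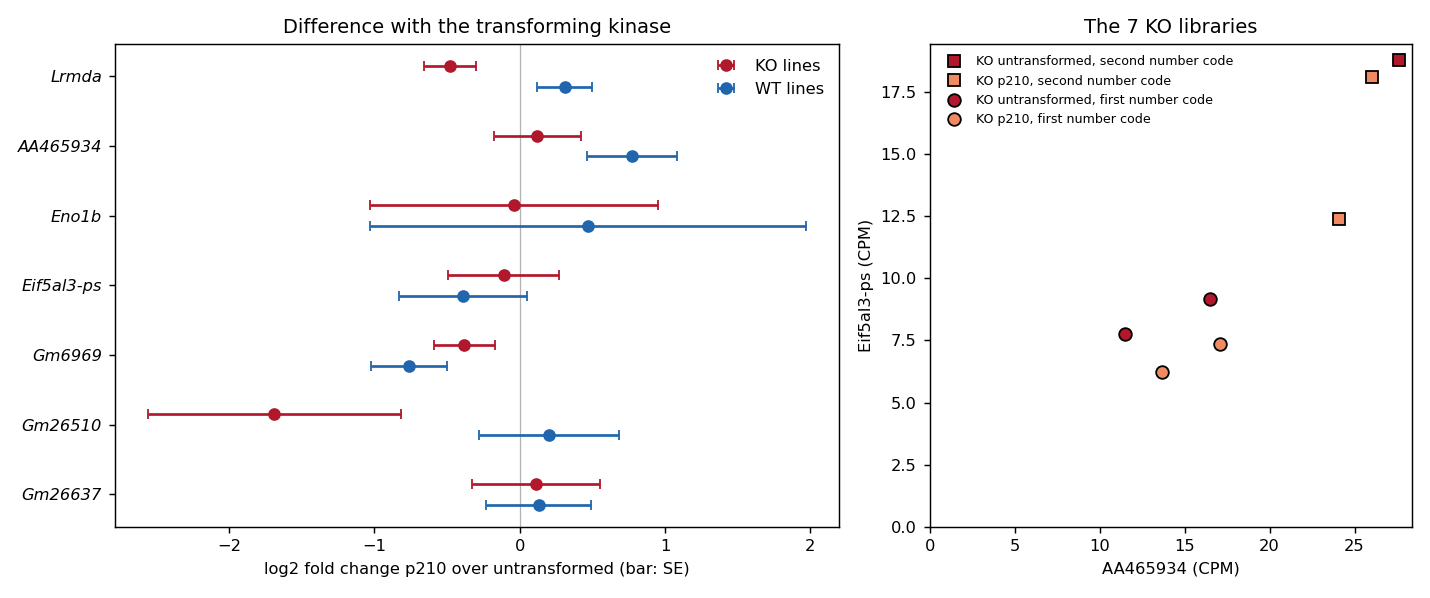
Left, log2 fold change of p210 over untransformed lines (x axis) for the 7 genes in KO lines (red) and WT lines (blue), with SE. Right, Eif5al3-ps (y axis, CPM) against AA465934 (x axis, CPM) in the 7 KO libraries, by state and by the number code of the line. The 3 KO libraries of the second code lie at the upper right, at 24.1 to 27.6 CPM of AA465934 and 12.4 to 18.8 CPM of Eif5al3-ps.

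Within the KO libraries, AA465934 and Eif5al3-ps split by the number code of the line and not by state. AA465934 stood at 24.1 to 27.6 CPM in the 3 KO libraries of the second code and at 11.5 to 17.1 CPM in the 4 of the first. Eif5al3-ps stood at 12.4 to 18.8 CPM in KO libraries of the second code and at 6.22 to 9.18 CPM in those of the first. Of all genes tested, 1.83% were higher and 2.03% lower in every second-code than in every first-code KO library. The 2 genes correlated at r = 0.90 over the 7 KO libraries, a description of libraries that share lines. AA465934 and Eif5a, the source of the pseudogene, lie on chromosome 11 with starts 13.4 Mb apart. In WT lines the codes did not part either gene, with AA465934 at 1.70 to 2.18 CPM in the second code and 1.83 to 4.13 CPM in the first. Lrmda and Gm6969 spanned like ranges in both codes, at 15.5 to 22.7 and 15.1 to 25.6 CPM for Lrmda in KO libraries of the second and first code. The genotype difference of each of the 7 genes kept its direction within either code alone.

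The 5 genes whose log2 CPM over the 14 libraries was most like that of Lrmda were Gm6969 (Pearson r = 0.984), Eif5al3-ps (0.962), AA465934 (0.946), Stx7 (0.937) and Ucp2 (0.930). Most unlike it were Gm26637 (-0.960), Gm26510 (-0.957) and Rbl1 (-0.955). The libraries fall into KO and WT, so these values mostly restate the genotype and carry no p. Stx7, a syntaxin of late endosomes, stood at 120 to 134 CPM in KO untransformed against 84.9 to 95.6 CPM in WT untransformed libraries, and at 121 to 137 CPM in KO p210 against 91.7 to 107 CPM in WT p210 libraries. Ucp2, a mitochondrial carrier, stood at 668 to 736 CPM in KO untransformed against 317 to 423 CPM in WT untransformed libraries, and at 729 to 916 CPM in KO p210 against 313 to 484 CPM in WT p210 libraries. Rbl1, the retinoblastoma-like pocket protein p107, was lower in KO, at 86.1 to 97.1 CPM against 118 to 132 CPM in WT untransformed libraries, and at 82.8 to 95.9 CPM in KO p210 against 111 to 126 CPM in WT p210 libraries. Within the KO libraries alone, Lrmda correlated with Gm6969 at 0.67 and with AA465934 at -0.34 (n = 7).

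Neighbouring genes were tested between genotypes within 1 Mb of each gene, 98 genes in all. Of these, 25 passed in untransformed lines (14 higher and 11 lower in KO), which is 25.5% beside 15.2% of all genes tested (8.73% higher, 6.50% lower). In p210 lines 11 passed (3 higher and 8 lower), which is 11.2% beside 4.44% (0.882% higher, 3.56% lower). With the same sign in both states 5 of the 98 passed (5.10%), beside 1.50% of all genes. Neighbours of a gene share a locus and no test was made of these shares. The untransformed count was 2 without KO untransformed replicate 2, and 8, 16, 12 and 9 without KO untransformed replicate 1 or 3 or WT untransformed replicate 3 or 4, and the p210 count was 4 or 6 without KO p210 replicate 2 or 4, 7 without KO untransformed replicate 1 and 6 without WT p210 replicate 1. With the p210 groups fitted alone it was 0, with 18 at an unadjusted p under 0.05 by edgeR, while DESeq2 on all libraries called 17 and limma-voom 6.

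Within 1 Mb of Lrmda, 10 genes were tested, of which 3 were higher and 1 lower in KO untransformed lines and none passed in p210 lines. The genes within its span, Gm27532, Gm5670 and Gm10248, had no count. Its nearest tested neighbours were Zfp503, a zinc finger repressor 30.1 kb away, at 4.79 ± 2.10 CPM in KO untransformed and 2.74 ± 1.46 CPM in WT untransformed lines (adjusted p = 0.325), and Polr3a, a subunit of RNA polymerase III beyond 1 Mb, at 35.8 and 35.7 CPM. No neighbour of Lrmda differed in both states. Eno1b had 1 tested gene within 1 Mb, Commd10, at 28.6 CPM in KO untransformed and 27.2 CPM in WT untransformed lines. Of 13 tested genes near Eif5al3-ps, 3 were lower in KO untransformed lines and none passed in p210 lines. Near Gm6969, Grhl1 at 21.3 kb was lower in KO untransformed lines, at 0.529 ± 0.223 CPM against 2.16 ± 0.851 CPM in WT (adjusted p = 0.0137, and 0.0615 or 0.0821 without KO replicate 1 or 2), and Klf11 at 12.4 kb was at 49.4 and 54.9 CPM.

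Around AA465934, 37 genes were tested, and 2 of them were lower in KO in both states. Slfn9, a Schlafen family gene 300 kb away, fell to 43.4 ± 5.42 CPM in KO untransformed against 82.5 ± 9.25 CPM in WT untransformed lines (adjusted p = 0.0269), and to 18.6 ± 6.14 CPM in KO p210 against 47.9 ± 8.59 CPM in WT p210 lines (adjusted p = 0.00896). The untransformed call was lost without KO replicate 1 or 2 or WT replicate 3 or 4 (adjusted p = 0.0926, 0.11, 0.0533 and 0.0587). Gm20234 stood at 1.06 ± 0.310 CPM in KO untransformed against 3.34 ± 0.594 CPM in WT untransformed lines (adjusted p = 0.00954, and 0.0599 without KO replicate 2), and at 0.889 ± 0.282 CPM in KO p210 against 3.43 ± 0.822 CPM in WT p210 lines (adjusted p = 0.00523). Both were lower in KO, while AA465934 was higher.

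On chromosome 17, Myl12a, a myosin light chain 68.7 kb from Gm26510, was higher in KO in both states. It averaged 239 CPM in KO untransformed against 192 CPM in WT untransformed lines (log2 fold change 0.32 ± 0.08, adjusted p = 0.0232), and 282 ± 12.6 CPM in KO p210 against 191 ± 18.4 CPM in WT p210 lines (adjusted p = 0.00349). Its untransformed call was lost without KO replicate 1 or 2 or WT replicate 1, 2 or 4 (adjusted p = 0.141, 0.133, 0.0679, 0.0689 and 0.0892). Tgif1, 20.8 kb from Gm26510 on the other side, was higher in KO untransformed lines, at 87.2 CPM against 59.8 CPM in WT (adjusted p = 0.0255), a call lost without any 1 of KO replicates 1 to 3 and WT replicates 2 to 4 (adjusted p from 0.0525 to 0.0995).

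Within 1 Mb of Gm26637, Gm6548 at 30.1 kb was lower in KO in both states. It stood at 4.12 ± 0.199 CPM in KO untransformed against 10.5 ± 0.810 CPM in WT untransformed lines (-1.36 ± 0.14, adjusted p = 0.00137), and at 4.95 ± 0.714 CPM in KO p210 against 12.9 ± 1.18 CPM in WT p210 lines (adjusted p = 0.000512). No single library decided that call. Gpatch11 at 33.7 kb was higher in KO, at 22.1 ± 0.668 CPM against 13.3 ± 0.418 CPM in WT untransformed lines (0.74 ± 0.12, adjusted p = 0.0058), and at 27.5 ± 2.40 CPM in KO p210 against 19.3 ± 3.74 CPM in WT p210 lines (adjusted p = 0.0334). The p210 call was lost without KO p210 replicate 1, 2 or 3, any KO untransformed library, WT p210 replicate 1, or WT untransformed replicate 2 or 4 (adjusted p from 0.0504 to 0.0823). Gm6548 and Gpatch11, on the same side of Gm26637, thus differed in opposite directions.

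**Figure D5:**
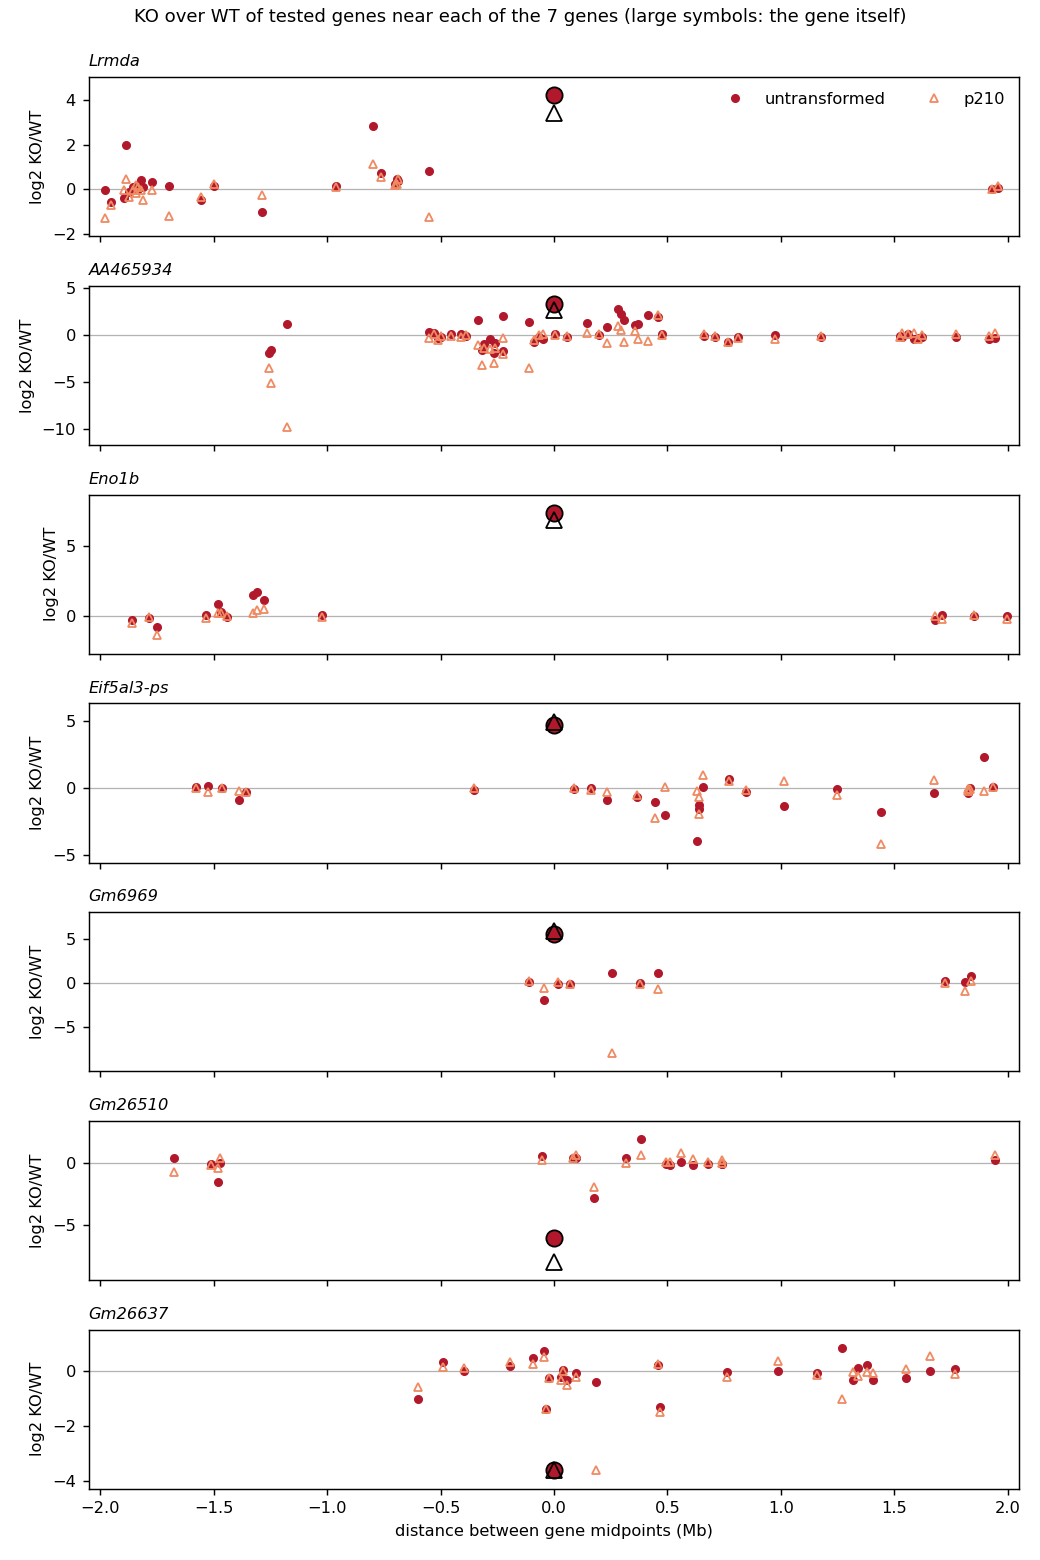
Log2 fold change of KO over WT (y axes, each on its own scale) for tested genes against the distance between gene midpoints in Mb (x axis), for untransformed lines (filled circles) and p210 lines (open triangles). The large symbols at 0 are the named gene itself. Lrmda, AA465934, Eno1b, Eif5al3-ps and Gm6969 stand above their neighbours, and Gm26510 and Gm26637 below their own. In p210 lines the neighbour Qpct (-3.59) is level with Gm26637 (-3.60).

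The promoter table of RefSeq (GRCm38.p6, 300 bases around a start) held entries for Lrmda, AA465934, Gm26510 and Gm26637. Those of Lrmda (chr14:22019462-22019761) and AA465934 (chr11:83291449-83291748) are shown because the 2 genes differed alike between genotypes and have no near copy. Capitals mark motif matches, which are CACGTG, an E-box, in both, and ACCACA, the reverse complement of the RUNX motif TGTGGT, in AA465934.
Lrmda: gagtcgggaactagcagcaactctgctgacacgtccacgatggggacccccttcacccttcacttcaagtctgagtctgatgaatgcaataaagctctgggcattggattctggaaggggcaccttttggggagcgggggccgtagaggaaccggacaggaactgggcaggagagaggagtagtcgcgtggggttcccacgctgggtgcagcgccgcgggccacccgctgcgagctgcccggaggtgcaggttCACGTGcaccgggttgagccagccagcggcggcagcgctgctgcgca
AA465934: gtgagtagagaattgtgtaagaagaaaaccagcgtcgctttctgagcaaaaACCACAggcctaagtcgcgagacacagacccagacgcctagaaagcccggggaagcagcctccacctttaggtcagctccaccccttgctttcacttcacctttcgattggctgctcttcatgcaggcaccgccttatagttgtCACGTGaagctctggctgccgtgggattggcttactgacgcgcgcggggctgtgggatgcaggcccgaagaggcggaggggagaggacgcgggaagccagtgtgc
The window of Gm26510, which is not shown, also holds the RUNX motif on one of its strands. Of 32851 promoters of that length, 7.15% hold CACGTG on either strand and 16.8% hold TGTGGT. The GATA motif AGATAA (11.2% of promoters), the ETS motif GAGGAAG (13.6%) and the E2F motif TTTCCCGC (1.07%) were not found in the windows of the 4 genes. CACGTG is a palindrome and does not overlap the other motifs.

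Of 35 genes for RAB32, RAB38, their regulators, the BLOC complexes and the Commander and Retriever complexes, which sort membrane cargo, 35 were tested. In KO untransformed lines 8 of them passed as higher than in WT and none as lower, where 15.2% of all genes passed. The median log2 fold change of the 35 was 0.14, beside -0.02 over all genes. Rab38 did not pass but was lower in every KO untransformed library (94.2 to 118 CPM) than in every WT untransformed one (141 to 198 CPM). Of all genes tested, 39.7% lay apart in this way, in either direction. Rab32 rose to 103 ± 13.4 CPM in KO untransformed against 50.7 ± 8.44 CPM in WT untransformed lines (1.02 ± 0.20 on the log2 scale, adjusted p = 0.0112). Hps3 (0.47 ± 0.10, adjusted p = 0.0144), part of a complex for lysosome-related organelles, Vps26c (0.94 ± 0.21, adjusted p = 0.0151), a Retriever subunit, and Fam45a (0.49 ± 0.11, adjusted p = 0.0172) rose as well. Without KO untransformed replicate 2 none of the 8 passed (adjusted p = 0.0716, 0.106, 0.0927 and 0.11 for these 4), and the count was 3 without KO replicate 1, 5 without KO replicate 3, and 3 and 2 without WT replicates 3 and 4. The Vps26c call was also lost without KO replicate 1 (adjusted p = 0.054), Hps3 without WT replicate 4 (0.0531), and Fam45a without WT replicate 3 or 4 (0.0537 and 0.0554).

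In p210 lines none of the 35 passed between genotypes by edgeR (4.44% of all genes did), with 8 at an unadjusted p under 0.05, 4 called by DESeq2 and none by limma-voom. Without KO p210 replicate 1 or WT p210 replicate 2 the count was 2, and without KO untransformed replicate 2 or WT p210 replicate 3 it was 1. Rab38 was at 67.8 ± 32.7 CPM in KO p210 and 133 ± 44.9 CPM in WT p210 lines (adjusted p = 0.11). Between p210 and untransformed lines 4 were higher and 7 lower in KO lines, and 10 higher and 5 lower in WT lines, where 37.2% (19.2% higher, 18.0% lower) and 39.5% (21.9% higher, 17.6% lower) of all genes passed. Dtnbp1, which encodes the BLOC subunit dysbindin, rose with p210 in both, to 128 ± 15.5 CPM against 80.0 ± 2.24 CPM in untransformed KO lines (adjusted p = 0.00031) and to 124 ± 11.5 CPM against 60.2 ± 3.77 CPM in untransformed WT lines (adjusted p = 1.81e-05). With a term for each cell line the counts of the list were 4 in KO and 1 in WT lines.

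Of 14 genes of the melanocyte programme 4 were tested, Mitf, Pmel, Slc24a5 and Kit, and none passed between genotypes by edgeR. At an unadjusted p under 0.05 there were 2 in untransformed and 0 in p210 lines, and DESeq2 and limma-voom each called 1 in untransformed lines. Tyr, Tyrp1, Sox10, Oca2 and Slc45a2 had no count in any library, while Slc24a5 held 5829 counts over all libraries and Pmel 1155. Mitf, the master regulator of melanocytes and also a factor of mast cells, was at 31.2 ± 7.79 CPM in KO untransformed and 15.3 ± 1.87 CPM in WT untransformed lines (adjusted p = 0.102, and 0.0313 without WT p210 replicate 3). Kit, the receptor for SCF, was at 259 ± 15.2 CPM in KO untransformed and 431 ± 51.4 CPM in WT untransformed lines (adjusted p = 0.0935, and 0.0188 without KO p210 replicate 1). It fell with p210, to 31.4 ± 11.9 CPM in KO (log2 fold change -3.04 ± 0.29, adjusted p = 3.31e-05) and to 45.5 ± 12.2 CPM in WT lines (-3.25 ± 0.31, adjusted p = 2.99e-05).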

How the data were processed

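RNA-seq counts of 14 libraries were used. Per the labels' protocols, RNA came from RNeasy columns, libraries from the SENSE mRNA-Seq kit, and reads were 50 bp single ends. Per the submitters' processing notes, the authors trimmed with Trimmomatic and aligned with STAR to GRCm38 (versions are not given in the sources used here). Per the file headers, each deposited file gives whole-number counts per gene of GENCODE M13, made by featureCounts 1.5.1 in its reverse-strand mode. No option for multi-mapping reads is in that command, so reads placed in several loci were not counted, which lowers near copies. The deposited TPM values, made by the authors from the same counts, differed from recomputed ones by at most 0.049.

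Counts were fitted with edgeR 4.0.16 (R 4.3.3): TMM scaling, filterByExpr defaults (minimum count 10, minimum total 15), robust quasi-likelihood, group as the only term, 14 libraries, Benjamini-Hochberg adjustment over 14512 genes, threshold 0.05. CPM use TMM-scaled sizes, and likeness used log2 CPM with a prior count of 2. Precision follows depth: 3 counts of 20270348 to 50303271 bound what a library could show. Symbols came from a GENCODE M21 table (50376 of 50686 genes). Transcript alignments used the reference's GRCm38 sequence. The fit recovered known fold changes in simulated data, which had the same spread for all genes and no differences between lines. Changes were put only into KO p210 libraries and genes above a floor of counts. Low counts and differences between lines were thus not checked. Alternatives were other scalings, no filter, DESeq2 1.42.0, limma-voom 3.58.1, only the groups compared, either code, runs, replicate blocks and leaving out each library.

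The members, lists and tests were chosen with earlier results of these data known. Genes named besides the 7 were their look-alike sources, overlapping and nearest tested genes, genes within 1 Mb that passed alike in both states, up to 4 of each list, the 5 most and 3 least like Lrmda, the first 10 by rank, and Cdk6, except that some are not reported here. Gm5855 and Gm4735 were chosen after their values were seen. Descriptions tie p210 lines to untransformed lines by code and letter (all but KO p210 replicate 3), so the cell line pairs samples there. Deviations of libraries of the same line correlated at 0.021 to 0.163, and those of the same code and letter in the other genotype at -0.081 to 0.032. The 61 other pairs of libraries from different groups correlated at -0.213 to 0.265. That range holds the values of the same line, so these correlations do not show the pairing.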

Additional observations from a re-analysis of the deposited data

Results flagged for a closer look

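In groups of 4 libraries, 8 values stood farther from the rest of their group than Dixon's critical value at 95% allows, among 82 groups examined, of which chance would flag about 1 in 20. In KO p210 lines, Eno1b was at 0.116 CPM in replicate 3, where the others were at 13.2 to 15.7 CPM, and Lrmda at 22.4 CPM in replicate 1, where the others were at 15.1 to 15.9 CPM. KO p210 replicate 1 also held the single non-zero value of Gm26510 (0.105 CPM) and the highest of Gm6548 (6.01 CPM, others 4.52 to 4.71). Eif5a was lowest in KO p210 replicate 4 (813 CPM, others 984 to 1007) and Stx7 highest in KO p210 replicate 2 (137 CPM, others 121 to 123). In WT untransformed replicate 3, Cox7a2l was at 90.4 CPM (others 109 to 112) and Gm6685 had its only WT value above 0 (0.0275 CPM).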

How the results depend on the processing

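The differences between KO and WT kept their direction for each of the 7 genes in both states under the 25 alternatives tried for each, but their sizes moved. In p210 lines the log2 fold changes ranged over 3.02 to 3.69 for Lrmda, 2.08 to 3.51 for AA465934, 5.74 to 8.80 for Eno1b, 4.05 to 5.88 for Eif5al3-ps, 5.62 to 6.11 for Gm6969, -11.05 to -6.58 for Gm26510 and -4.01 to -3.05 for Gm26637. In untransformed lines they ranged over 4.10 to 4.26, 2.85 to 3.92, 6.01 to 8.75, 4.13 to 5.16, 5.42 to 5.59, -6.47 to -5.70 and -4.08 to -3.35 in the same order of genes. Counts of genes past the threshold moved more. For KO against WT in untransformed lines (2211) they were 3499 by DESeq2, 1273 with no filter, 3399 with the 2 groups alone, 435 with the first code, 0 with the second code (2466 at an unadjusted p under 0.05; by edgeR), 1330 with a replicate block by code and letter and 1042 with a term for sequencing runs. For KO against WT in p210 lines (645) they were 1454 by DESeq2, 386 by limma-voom, 5 with the 2 groups alone, 4 with the second code and 421 with runs. For p210 in KO lines (5395) they were 73 with the second code and 3316 with a replicate block by cell line. For p210 in WT lines (5727) they were 3725 with the first code, 1566 with the second, 594 with the cell line block and 3652 with runs. Leaving out 1 library gave 181 (without KO untransformed replicate 2) to 2643, 285 (without WT p210 replicate 1) to 736, 3969 to 5742, and 4668 to 5854 in the same order. The untransformed count was 691 without KO replicate 1, and 1195 and 928 without WT replicates 3 and 4, and the p210 count was 305 without KO p210 replicate 2. Library size scaling moved the median log2 fold change by up to -0.12 and the split of p210 in KO lines to 2093 higher and 3466 lower, from 2790 and 2605 with TMM, and upper quartile scaling gave 2341 and 3243. In WT lines these were 2516 and 3471, and 2709 and 3265, beside 3173 and 2554. For KO against WT they gave 915 and 1657, and 1077 and 1362, beside 1267 and 944 in untransformed lines, and 69 and 722, and 95 and 614, beside 128 and 517 in p210 lines. With TPM, 4 of the 5 genes most like Lrmda were the same.

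Directions turned only for differences that did not pass. For p210 in KO lines these were AA465934 (-0.14 second code, -0.02 without KO p210 replicate 3, -0.12 without KO untransformed replicate 2), Eno1b (0.08 first code, 0.15 second code, 0.44 cell line block, 0.09 code and letter block, 0.37 without KO p210 replicate 3, 0.30 without KO untransformed replicate 1), Eif5al3-ps (0.04, 0.08 and 0.38 without KO p210 replicates 1 and 2 and KO untransformed replicate 3) and Gm26637 (-0.23 second code, -0.04 without KO p210 replicate 1, -0.00 and -0.08 without KO untransformed replicates 1 and 2). For p210 in WT lines they were Eno1b (-0.01 limma-voom, -1.01 second code, -1.54 without WT p210 replicate 1), Gm26510 (-0.12 runs, -0.09 without WT p210 replicate 3) and Gm26637 (-0.52 second code, -0.13 without WT p210 replicate 1, -0.02 without WT untransformed replicate 2). For KO against WT they were Cox7a2l (0.08 second code, p210), Eif5a (-0.03 library size and -0.04 without WT p210 replicate 3, p210), Eno1 (0.25 second code and 0.03 without WT untransformed replicate 1 in untransformed lines, 0.35 second code and 0.01 without WT p210 replicate 1 in p210 lines) and Eif2ak2 (0.01 first code, p210). Leaving out 1 library gave up to 0.53 for AA465934, as low as -0.29 for Eno1b and -0.46 for Eif5al3-ps, and up to 0.59 for Gm26637 in KO lines. In WT lines it gave up to 1.07 for Eno1b, 0.34 for Gm26510 and 0.27 for Gm26637. For KO against WT it gave up to 0.16 for Eif5a in p210 lines and as low as -0.26 and -0.33 for Eno1 in untransformed and p210 lines. The cause was not tested. A single code leaves 1 library in some groups, which is assumed to vary like the others. Depth limits Eno1b in WT and Gm26510 in KO lines, at 0 to 7 and 0 to 3 counts per library.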
